A study of Hordeum vulgare with 24 samples.

Results

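Of 39734 barley gene identifiers, 81 stood highest in warm-grown young spikes of an HvMADS1 mutant (mads1) taken at Waddington stage W3.5. These members were chosen by their read counts, expressed as counts per 1000000 counted reads of a library (CPM). The lowest of the 3 mads1_HT_W3.5 libraries had to reach 2 CPM, and it had to be at least 1.5 times the highest of 20 libraries from the other 7 groups. WT_HT_W2.5 replicate 3 was left out of that choice. In all, 14601 identifiers reached 2 CPM in every mads1_HT_W3.5 library. The levels in mads1_HT_W3.5 selected the members, so every comparison with that group is a description with no test, while comparisons among the other 7 groups were tested.

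The study measured RNA from inflorescences of HvMADS1-mutant (mads1) and wild-type (WT) plants in a design of genotype, temperature and stage. Plants of the high-temperature treatment (HT) had 25 °C by day and 20 °C by night, and those of the low-temperature treatment (LT) had 15 °C and 10 °C. The photoperiod was 16 h in both treatments. At stage W3.5 the groups were mads1_HT_W3.5, WT_HT_W3.5, mads1_LT_W3.5 and WT_LT_W3.5, and at stage W2.5 they were mads1_HT_W2.5, WT_HT_W2.5, mads1_LT_W2.5 and WT_LT_W2.5. All 8 groups were of the cultivar Golden Promise, with 3 libraries each. Per the labels a library came from 15 to 20 spikes and the 3 libraries of a group are biological replicates. The sources used here do not give the kind of mutation or the number of mutant lines. A difference of line between mads1_HT_W3.5 and the other mads1 groups could thus not be told apart from temperature and stage.

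HvMADS1 is a SEPALLATA gene: it encodes a MADS-box transcription factor of a group whose proteins combine with other MADS-box proteins to set the identity of floral meristems and floral organs in grasses and other flowering plants. The Waddington scale orders the development of the barley spike by the organs visible on its apex, and around the stages sampled here spikelets form floret meristems and the first floral organ primordia. Barley spike development is sensitive to the temperature at which plants grow. A spike is a mixture of meristem, bract, rachis and floral organ cells, so in these bulk samples more cells of a type and more RNA per cell cannot be told apart.

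Library totals ran from 13283533 to 19864259 counted reads, so that 3 counts stood at 0.151 to 0.226 CPM. WT_HT_W2.5 replicate 3 stood apart. Its TMM scaling factor was 0.575, against 0.959 to 1.08 in the others, and no library had a rank correlation with it above 0.901, against at least 0.947 between any pair of the other 23. The tests below therefore used 20 libraries, and values with this library added are given beside them. The identifier taken for HvMADS1 from knowledge of the family, HORVU4Hr1G067680, had 0, 0.334 and 12.8 CPM in mads1_HT_W3.5, against 63.2, 63.5 and 67.7 CPM in WT_HT_W3.5. It had 43.8, 45.5 and 49.1 CPM in mads1_LT_W3.5, against 59.4, 65.4 and 65.8 CPM in WT_LT_W3.5, and at LT W2.5 it had 15.1, 23.5 and 14.1 CPM in mads1_LT_W2.5, against 39.1, 43.4 and 42.4 CPM in WT_LT_W2.5. At HT W2.5 the genotypes overlapped, with 8.63, 13.7 and 9.38 CPM in mads1_HT_W2.5 and 6.72 and 10.5 CPM in WT_HT_W2.5. Only replicates 1 and 2 of mads1_HT_W3.5 were thus near 0. Because the kind of mutation is not given, its RNA level does not check for the absence of the protein. Of 13 floral MADS-box identifiers fixed as inflorescence markers from family knowledge, 12 to 13 reached 1 CPM in mads1_HT_W3.5 and 13 did so in WT_HT_W3.5. Their summed level was 892 to 929 CPM in mads1_HT_W3.5 and 928 to 961 CPM in WT_HT_W3.5, and none was a member. The near-equal sums hide opposite differences. In mads1_HT_W3.5, 8 of the 13 lay below all WT_HT_W3.5 libraries and 1 above them, and 4 overlapped. Of the 15572 genes with a mean of 2 CPM in either group, 22.1% lay below and 16.1% above. Those below were HvMADS1, HvMADS3, HvMADS6, HvMADS7, HvMADS8, HvMADS16, HvMADS32 and HvMADS58. HORVU7Hr1G054220, listed as HvMADS7, had 9.91, 8.45 and 3.84 CPM in mads1_HT_W3.5 and 19.2, 16.0 and 20.0 CPM in WT_HT_W3.5. HORVU7Hr1G091210, listed as HvMADS16, had 17.4, 14.8 and 7.94 CPM in mads1_HT_W3.5 and 26.0, 23.6 and 30.2 CPM in WT_HT_W3.5. The one above was HORVU5Hr1G095630, listed as HvMADS14, which makes up the largest share of the sum, with 426, 453 and 444 CPM in mads1_HT_W3.5 and 351, 367 and 331 CPM in WT_HT_W3.5. Whether the state of the floral organs plays a part in the members' levels was not tested. Among the W2.5 groups, WT_LT_W2.5 stood apart in these markers. There 9 to 13 reached 1 CPM with a sum of 699 to 787 CPM, against 7 to 8 and 465 to 630 CPM in the others. HORVU6Hr1G066140, listed as HvMADS6, had 10.1, 14.3 and 5.79 CPM in WT_LT_W2.5 and at most 0.865 CPM in the others. Whether WT_LT_W2.5 spikes were further developed was not tested, which limits every comparison with that group, interactions included.

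The files give identifiers with no gene name or description, and none of the identifiers occurs in the RefSeq gene table used here. The members are therefore described by identifier, level and pattern, with no function and no sequence. In this naming the digit after HORVU stands for the chromosome, with 0 for genes placed on none. Chromosomes 2 and 3 together held 36 of the 81 members, or 44.4%, against 31.1% of the 14601 genes at 2 CPM. These are the chromosomes with the most members, so their pooled share is not a test of chromosome. On chromosomes 1, 4, 5 and 7 the members' share was the lower one, with 6.17% against 12.2% on chromosome 1 and 9.88% against 15.6% on chromosome 5. Members had a median length of 1475 bases (297 to 4346), and the genes at 2 CPM had a median of 1597 bases.

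Most members exceeded the threshold narrowly and a few did so by a wide margin. The ratio of the lowest mads1_HT_W3.5 library to the highest of the 20 others had a median of 1.77. It lay from 1.5 to 2 for 49 members, from 2 to 3 for 16, from 3 to 10 for 9, and at 10 or above for 7, which include 3 members with no read in those 20 libraries. Just inside the threshold, HORVU5Hr1G013400 had a lowest value of 33.3 CPM in mads1_HT_W3.5 against 22.2 CPM as the highest other library, and HORVU2Hr1G099200 had 33.9 against 22.4 CPM. Just outside it, HORVU7Hr1G120390 had 15.4 against 10.3 CPM and HORVU3Hr1G023750 had 42.7 against 28.7 CPM.

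**Figure D1:**
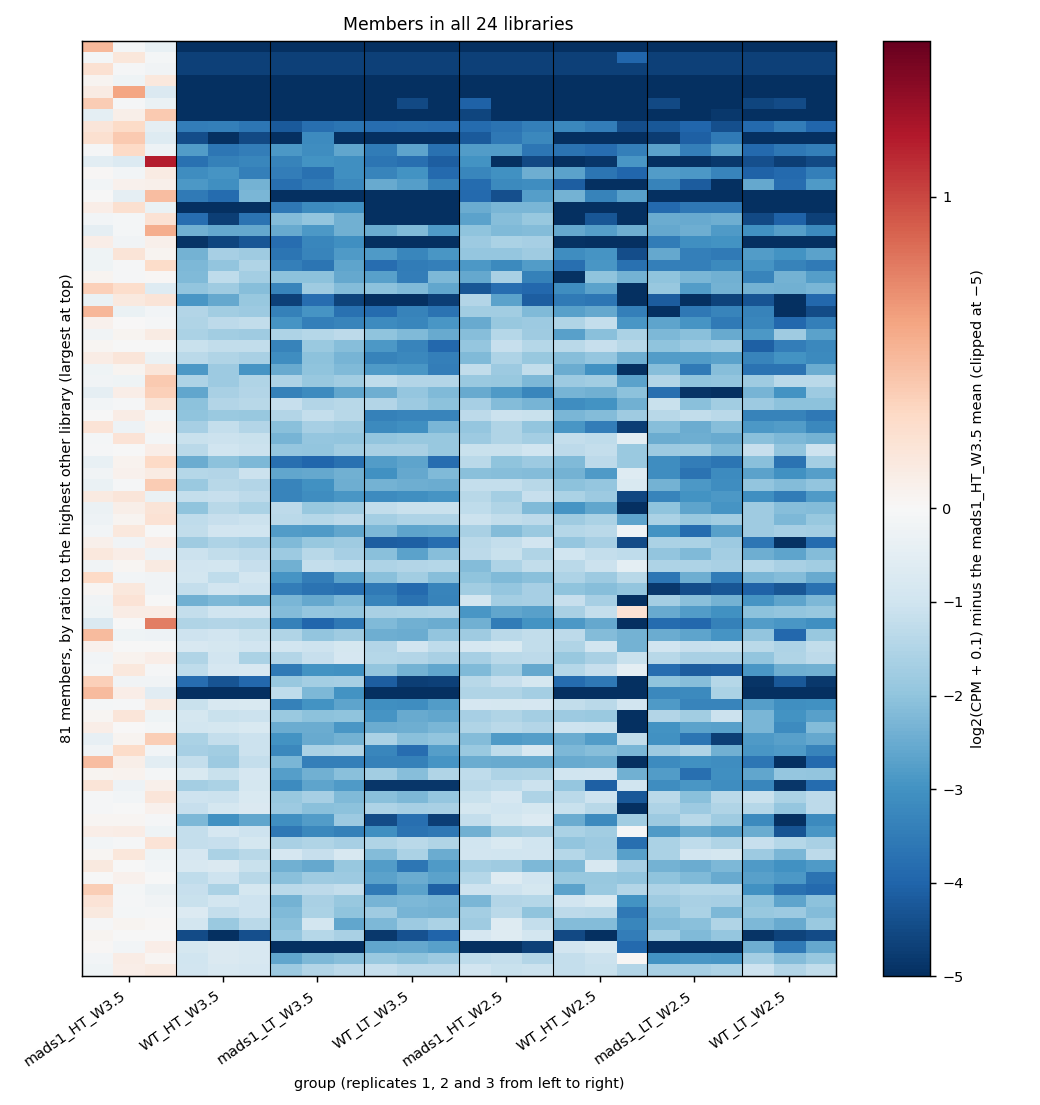
Level of each of the 81 members (rows, by the ratio that chose them, largest at top) in all 24 libraries (columns, by group), as log2(CPM + 0.1) minus the mean of the 3 mads1_HT_W3.5 libraries. The top 7 rows are dark blue in nearly every other library, further rows are lightest in the other HT groups, and WT_HT_W2.5 replicate 3 shows dark and light cells that its fellow libraries do not share.

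Together the members summed to 3705 to 4246 CPM in the mads1_HT_W3.5 libraries, which is the total the choice of members favours. Outside that group the sum followed temperature. It was 1451 to 1766 CPM in WT_HT_W3.5, 1355 to 1419 CPM in mads1_HT_W2.5 and 1256 to 1312 CPM in the 2 WT_HT_W2.5 libraries used. In the LT groups it was 611 to 760 CPM in mads1_LT_W3.5, 689 to 774 CPM in WT_LT_W3.5, 576 to 691 CPM in mads1_LT_W2.5 and 761 to 850 CPM in WT_LT_W2.5. No HT library overlapped an LT library in this sum. The 5 most abundant members made up 58.4 to 62.2% of it in mads1_HT_W3.5. The other 76 members alone summed to 1540 to 1626 CPM in mads1_HT_W3.5, 503 to 546 CPM in WT_HT_W3.5, 444 to 494 CPM in mads1_HT_W2.5, 396 to 425 CPM in WT_HT_W2.5 and 227 to 357 CPM in the LT groups.

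**Figure D2:**
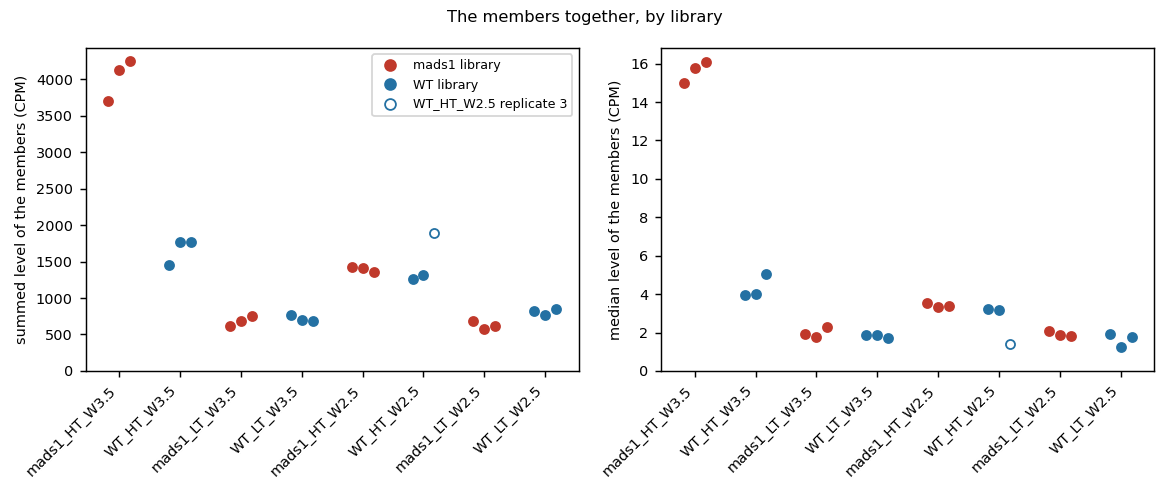
Sum (left) and median (right) of the 81 members' levels in CPM, each point 1 library, by group, with WT_HT_W2.5 replicate 3 as an open circle. The 3 mads1_HT_W3.5 libraries sit at 3705 to 4246 CPM on the left, and the remaining HT groups lie above the LT groups.

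The 3 mads1_HT_W3.5 libraries varied among themselves by a median of 1.31 times between the highest and the lowest value of a member, with a range of 1.04 to 3.62 times. Replicate 1 was the lowest of the 3 for 34 members, replicate 2 for 17 and replicate 3 for 30, while over the genes at 2 CPM these shares were 31.4%, 15.5% and 53.1%. The number of members depended on replicate 1: without it 170 genes met the rule, without replicate 2 the number was 88, and without replicate 3 it was 113. All 81 members met the rule in each case, which was fixed in advance. Leaving out a library cannot lower the lowest value, so the number could only stay or rise.

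Of the members, 3 had reads in mads1_HT_W3.5 and in none of the 20 other libraries. HORVU7Hr1G062070, a model of 336 bases, had 15.3, 10.2 and 8.33 CPM in mads1_HT_W3.5 and no read in any of the 21 libraries outside it. These were 534 reads. Set against a floor of 3 counts over a group, the level in mads1_HT_W3.5 was at least 111-fold higher than in WT_HT_W2.5, at least 185-fold higher than in WT_HT_W3.5 and at least 203-fold higher than in WT_LT_W3.5. HORVU2Hr1G077390, of 353 bases, had 2.31, 2.78 and 2.31 CPM in mads1_HT_W3.5, and 0.0659 CPM in WT_HT_W2.5 replicate 3 was its one value above 0 elsewhere. HORVU4Hr1G075890, of 297 bases, had 2.85, 2.33 and 2.12 CPM in mads1_HT_W3.5 and no read elsewhere. All 3 models were far shorter than the members' median, and whether their reads belong to a longer or a near-identical gene was not tested.

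Another 3 members came close to that pattern. HORVU3Hr1G025780 had 32.5, 27.2 and 35.2 CPM in mads1_HT_W3.5, against 0, 0.0628 and 0 CPM in WT_HT_W3.5. Its highest values elsewhere were both in mutant groups, at 0.629, 0.123 and 0.185 CPM in mads1_LT_W3.5 and 0.490, 0.406 and 0.257 CPM in mads1_HT_W2.5. No read of it was counted in WT_LT_W3.5 or WT_LT_W2.5. HORVU6Hr1G074330 had 31.3, 43.6 and 17.5 CPM in mads1_HT_W3.5, against 0.247, 0.0628 and 0.114 CPM in WT_HT_W3.5, and at most 0.522 CPM in the other groups. HORVU6Hr1G011660 had 4.68, 3.39 and 2.84 CPM in mads1_HT_W3.5, no read in WT_HT_W3.5 and at most 0.122 CPM elsewhere. All 6 of these members were too low among the 20 other libraries to pass the filter on low counts, as were HORVU4Hr1G052770 and HORVU6Hr1G010420, so 73 of the 81 members were tested.

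Per length, the most abundant members were of a different kind: they were well expressed everywhere. In deposited FPKM values, which set a gene's reads against its length and the library's total, HORVU3Hr1G004140 averaged 686 ± 72.0 in mads1_HT_W3.5 and 328 ± 35.1 in WT_HT_W3.5 (SD, n = 3 in each group here). HORVU5Hr1G062510 averaged 674 ± 168 FPKM in mads1_HT_W3.5 and 226 ± 40.0 FPKM in WT_HT_W3.5, and in mads1_HT_W3.5 these 2 members differed by less than their spread. HORVU7Hr1G012850 averaged 502 ± 39.1 FPKM in mads1_HT_W3.5 and 270 ± 34.9 FPKM in WT_HT_W3.5. HORVU7Hr1G010690 averaged 418 ± 40.3 FPKM in mads1_HT_W3.5 and 216 ± 37.5 FPKM in WT_HT_W3.5. Over all members the FPKM mean in mads1_HT_W3.5 had a median of 13.7, against 17.0 over the genes at 2 CPM.

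Leaving out mads1_HT_W3.5, the group with the highest mean was WT_HT_W3.5 for 36 of the 78 members with a read elsewhere and mads1_HT_W2.5 for 28. It was mads1_LT_W3.5 for 7, WT_HT_W2.5 for 5 and WT_LT_W3.5 for 2. Of the genes at 2 CPM, 20.8% were highest in WT_HT_W3.5 and 12.4% in mads1_HT_W2.5 among these 7 groups. The mean in mads1_HT_W3.5 was a median of 2.47 times that of the next group. The groups that share 2 of the 3 conditions of mads1_HT_W3.5 with HT among them thus came next for 64 members, or 82.1%, against 33.2% of the genes at 2 CPM. No test was made of this order, since the rule itself sets a ceiling on all of these groups.

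Among the other 7 groups, whose levels the rule bounds from above, more members were called for temperature than for genotype or stage. The same held for all genes tested, so the counts alone do not rank these factors. In edgeR's quasi-likelihood test with Benjamini-Hochberg adjustment over 18465 genes, calls were made at an adjusted p under 0.05. In WT at W3.5, 48 of the 73 members tested were higher at HT, or 65.8%, beside 14.6% of all genes tested, and 0 were lower, beside 13.9%. In mads1 at W2.5, 40 were higher at HT, beside 17.1% of all genes, and 1 was lower, beside 17.4%. In WT at W2.5, 25 were higher, beside 10.4%, and 3 were lower, beside 9.08%. The members' median log2 difference of HT over LT was 1.14 in WT at W3.5, 0.74 in mads1 at W2.5 and 0.56 in WT at W2.5, and over all genes it was −0.01 in each. With the 3 members that have a group at 0 put at their bound, it was 1.11 in WT at W3.5. Members higher at HT in all 3 settings, which share no library, numbered 16, beside 5.04% of all genes, and members lower in all 3 numbered 0, beside 5.0%. With WT_HT_W2.5 replicate 3 added, the common dispersion was 0.0689, against 0.0110 without it. Fewer genes were then called in the 2 settings that do not hold this library: 40.8% of members and 3.59% of all genes were higher at HT in WT at W3.5, and 28.2% and 4.35% in mads1 at W2.5.

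**Figure D3:**
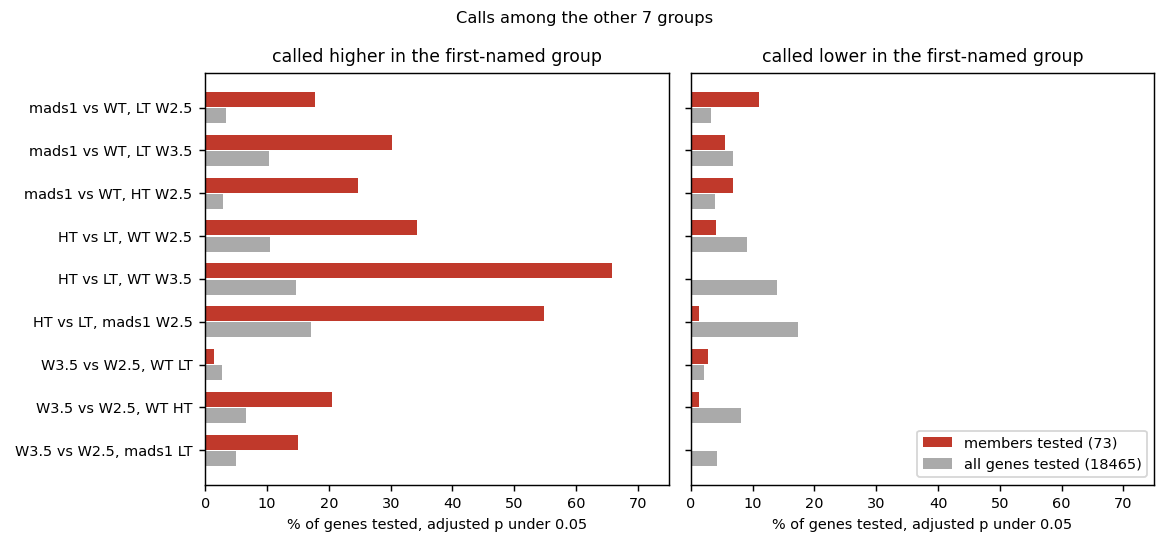
Share of genes tested that were called higher (left) or lower (right) in the first-named group of each comparison, in percent, for the 73 members tested (red) and all 18465 genes tested (grey). Members exceed the grey bars most for HT over LT in WT at W3.5, at 65.8% against 14.6%, and red bars are near or at 0 for lower levels at HT.

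HORVU7Hr1G012850 showed the temperature pattern at high abundance. It had 241, 300 and 309 CPM in WT_HT_W3.5, against 62.6, 60.8 and 75.5 CPM in WT_LT_W3.5. In the mutant at W2.5 it had 294, 284 and 290 CPM in mads1_HT_W2.5, against 73.8, 53.6 and 52.9 CPM in mads1_LT_W2.5. No HT value overlapped an LT value. The log2 difference was 2.13 ± 0.16 in WT at W3.5 (SE, adjusted p = 2.5e-08), 2.25 ± 0.17 in mads1 at W2.5 (adjusted p = 1.252e-08) and 1.64 ± 0.18 in WT at W2.5 (adjusted p = 2.78e-06). In mads1_HT_W3.5, the group that selected it, it had 497, 508 and 573 CPM, against 50.2, 66.3 and 84.3 CPM in mads1_LT_W3.5.

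HORVU2Hr1G041250 had the largest called rise at HT among members with at least 2 CPM, in WT at W3.5 and again in mads1 at W2.5. It had 6.43, 7.60 and 7.01 CPM in WT_HT_W3.5, against 1.16, 0.897 and 1.41 CPM in WT_LT_W3.5, and 4.29, 3.72 and 4.56 CPM in mads1_HT_W2.5, against 0.417, 0.577 and 0.662 CPM in mads1_LT_W2.5. In both settings all HT libraries lay well above all LT libraries. The log2 differences were 2.61 ± 0.19 (adjusted p = 1.44e-08) and 2.89 ± 0.22 (adjusted p = 2.69e-08) in these settings, and 2.04 ± 0.23 in WT at W2.5 (adjusted p = 5.44e-06). In WT at W2.5 the largest rise was that of HORVU5Hr1G062830, which had 2.58 and 3.01 CPM in WT_HT_W2.5, against 0.302, 0.529 and 0.637 CPM in WT_LT_W2.5 (log2 difference 2.495 ± 0.40, adjusted p = 0.000257). HORVU7Hr1G010690 rose at HT in all 3 settings, by log2 1.38 ± 0.21 in WT at W3.5 (adjusted p = 7.63e-05), 1.87 ± 0.22 in mads1 at W2.5 (adjusted p = 4.81e-06) and 1.29 ± 0.23 in WT at W2.5 (adjusted p = 0.000626). HORVU3Hr1G004140 rose at HT in WT at W3.5, with 275, 337 and 329 CPM in WT_HT_W3.5 against 139, 104 and 108 CPM in WT_LT_W3.5 (log2 difference 1.46 ± 0.20, adjusted p = 2.46e-05). The 3 members lower at HT in WT at W2.5 included HORVU3Hr1G095200, which had 1.86 and 2.03 CPM in WT_HT_W2.5 and 4.63, 3.97 and 3.98 CPM in WT_LT_W2.5. Its log2 difference was −1.12 ± 0.31 (adjusted p = 0.0163), and the call was lost without WT_HT_W2.5 replicate 1 (adjusted p = 0.135) or replicate 2 (adjusted p = 0.0852) and with replicate 3 added (−0.48, adjusted p = 0.34).

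By count, genotype moved fewer members than temperature, and it also moved fewer of all genes tested. Members went in both directions, more often up in mads1. At LT W3.5, 22 members were higher in mads1, beside 10.3% of all genes tested, and 4 were lower, beside 6.79%. At HT W2.5, 18 were higher, beside 2.9%, and 5 were lower, beside 3.91%. At LT W2.5, 13 were higher, beside 3.3%, and 8 were lower, beside 3.25%. Of the members tested, the share higher in mads1 was thus 30.1% in the first of these settings, 24.7% in the second and 17.8% in the third. Over the members, the log2 difference of mads1 over WT had a median of 0.32 at LT W3.5, 0.35 for the HT pair at W2.5 and 0.12 for the LT pair. Members higher in mads1 in all 3 settings numbered 11, beside 1.01% of all genes, and members lower in all 3 numbered 2, beside 0.677%. With WT_HT_W2.5 replicate 3 added, higher calls covered 15.5% of members beside 1.66% of all genes at LT W3.5, 15.5% beside 2.13% at HT W2.5 and 14.1% beside 1.38% at LT W2.5. At HT W2.5 the calls in both directions, 23 with the libraries used, numbered 12 without WT_HT_W2.5 replicate 1 and 11 without replicate 2, when 1 library stands for the group and is assumed to vary like the others.

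Several of the 11 members higher in mads1 throughout had no or almost no reads in WT. HORVU2Hr1G063550 had 1.77, 2.47 and 2.59 CPM in mads1_LT_W3.5, 3.98, 4.47 and 4.56 CPM in mads1_HT_W2.5 and 1.43, 1.79 and 1.81 CPM in mads1_LT_W2.5. It had no read in any library of WT_HT_W3.5, WT_LT_W3.5 or WT_LT_W2.5, and 0.0600 and 0.0753 CPM in WT_HT_W2.5. Every mutant library thus lay above every WT library. Against 3 counts over the WT group it was at least 41.2-fold higher in mads1 at LT W3.5 (adjusted p = 4.52e-07) and at least 30.1-fold higher at LT W2.5 (adjusted p = 1.55e-06). At HT W2.5 the ratio was 64.9 from 213 and 2 reads, with a 95% interval of 17.8 to 540 that covers counting error only (adjusted p = 1.71e-06). In mads1_HT_W3.5 it had 23.9, 26.5 and 17.7 CPM.

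HORVU1Hr1G008830 had 3.32, 1.60 and 0.923 CPM in mads1_LT_W3.5, 2.82, 2.79 and 2.44 CPM in mads1_HT_W2.5 and 0.775, 0.808 and 2.65 CPM in mads1_LT_W2.5, and no read in the WT groups of the same conditions. It was at least 36.1-fold higher in mads1 at LT W3.5 (adjusted p = 0.000257), at least 26.8-fold at HT W2.5 (adjusted p = 0.00104) and at least 25.1-fold at LT W2.5 (adjusted p = 0.000983). HORVU6Hr1G011520 was low but present in WT, with 2.69, 3.89 and 3.39 CPM in mads1_LT_W3.5, against 0.276, 0.419 and 0.555 CPM in WT_LT_W3.5, and 5.88, 6.73 and 5.52 CPM in mads1_HT_W2.5, against 0.36 and 0.151 CPM in WT_HT_W2.5. Its log2 differences were 3.04 ± 0.29 at LT W3.5 (adjusted p = 3.57e-07), 4.50 ± 0.37 at HT W2.5 (adjusted p = 3.85e-08) and 3.07 ± 0.31 at LT W2.5 (adjusted p = 8.55e-07). HORVU2Hr1G009570 was abundant in both genotypes, with 60.4, 73.2 and 64.3 CPM in mads1_LT_W3.5, against 16.0, 17.1 and 16.7 CPM in WT_LT_W3.5, and its log2 difference was 2.07 ± 0.10 (adjusted p = 6.06e-12). In all of these the genotypes did not overlap. By identifier, 6 of the 11 lie on chromosome 2, which holds 19.8% of the 187 genes higher in mads1 in all 3 settings. Chromosome 2 held the most of the 11 and also the most of the 187, and its share was not tested.

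**Figure D4:**
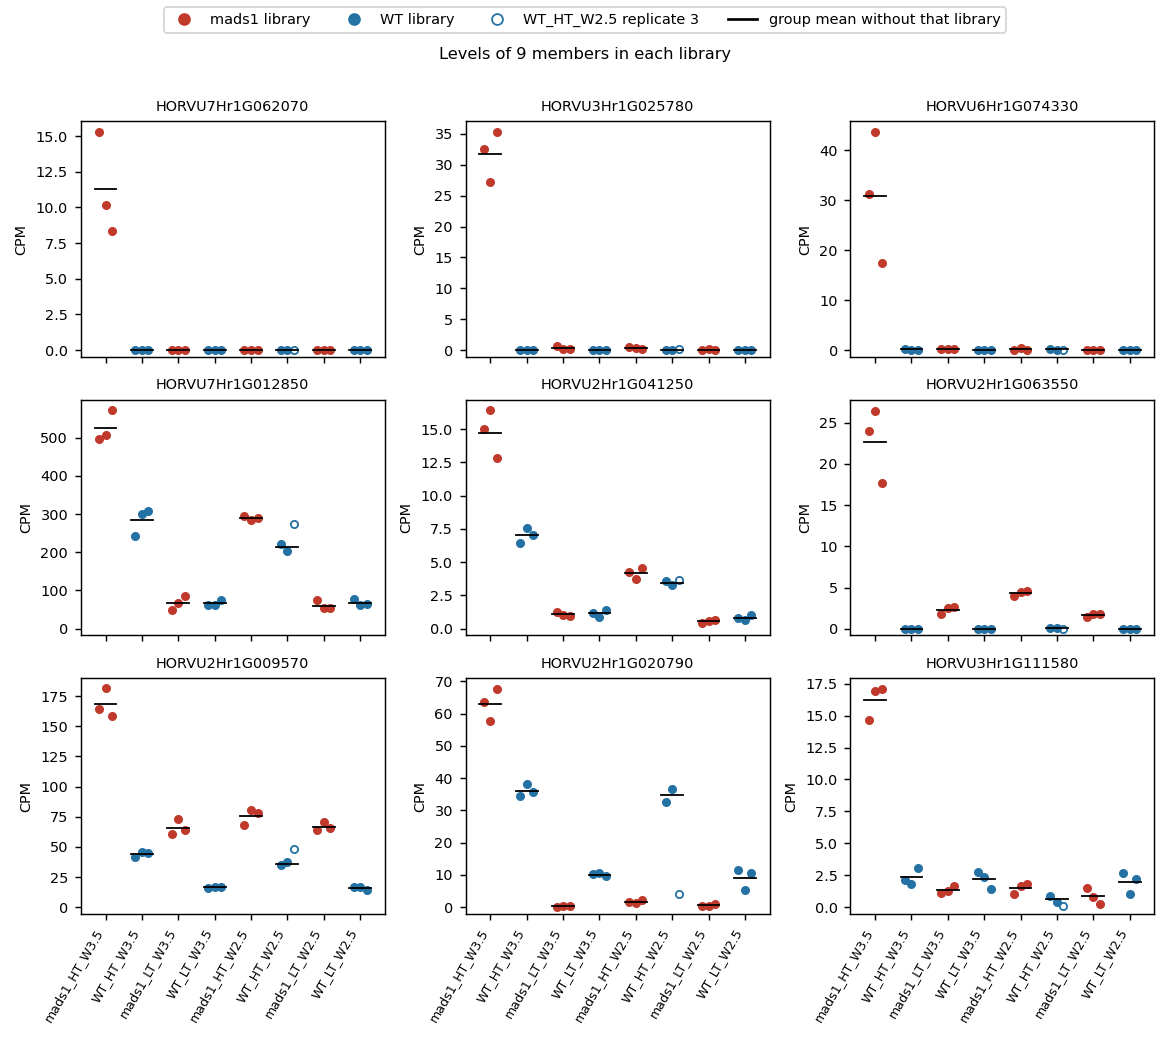
Level in CPM of 9 members in each library, by group, with the group mean as a line; WT_HT_W2.5 replicate 3 is an open circle and is not in the mean. The top row shows members near 0 outside mads1_HT_W3.5. The lower rows show members that differ by temperature (HORVU7Hr1G012850, HORVU2Hr1G041250), by genotype (HORVU2Hr1G063550, HORVU2Hr1G009570), or with opposite signs at HT W3.5 and elsewhere (HORVU2Hr1G020790). The sign at HT W3.5 was fixed by the choice of members.

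HORVU2Hr1G020790 ran against the others. In mads1_HT_W3.5 it had 63.7, 57.8 and 67.6 CPM, against 34.6, 38.3 and 35.6 CPM in WT_HT_W3.5. In every other mutant group it was close to absent where WT expressed it: it had 0.172, 0.432 and 0.246 CPM in mads1_LT_W3.5, against 10.2, 10.5 and 9.53 CPM in WT_LT_W3.5, and 1.59, 1.34 and 2.38 CPM in mads1_HT_W2.5, against 32.7 and 36.8 CPM in WT_HT_W2.5. At LT W2.5 it had 0.417, 0.519 and 1.14 CPM in mads1_LT_W2.5, against 11.5, 5.29 and 10.7 CPM in WT_LT_W2.5. The genotypes did not overlap in these 3 settings, and mads1 was the lower one in each. At HT W3.5 the choice of members itself put mads1 above WT with no overlap. Whether a difference of line between the mads1 groups plays a part was not tested. The log2 differences of mads1 over WT were −5.05 ± 0.35 at LT W3.5 (adjusted p = 4.11e-09), −4.27 ± 0.26 at HT W2.5 (adjusted p = 4.4e-10) and −3.69 ± 0.30 at LT W2.5 (adjusted p = 3.95e-08). HORVU2Hr1G020790 rose at HT in WT, by log2 1.87 ± 0.20 at W3.5 (adjusted p = 1.07e-06) and 1.90 ± 0.21 at W2.5 (adjusted p = 4.89e-06). From its low level in mads1 at W2.5 it also rose at HT, by log2 1.32 ± 0.38 (adjusted p = 0.0116). The other member lower in mads1 in all 3 settings was HORVU7Hr1G010690, with 30.5, 23.6 and 24.6 CPM in mads1_LT_W2.5, against 56.4, 77.7 and 79.6 CPM in WT_LT_W2.5 (log2 difference −1.41 ± 0.22, adjusted p = 0.00029, and 0.059 with WT_HT_W2.5 replicate 3 added). Its other calls for genotype did not hold in some of the fits that left out 1 library. At LT W3.5 the difference was −0.78 ± 0.22 (adjusted p = 0.0177), and it was not called without WT_LT_W3.5 replicate 1 (−0.63, adjusted p = 0.0895) or with WT_HT_W2.5 replicate 3 added (adjusted p = 0.462). At HT W2.5 it was −0.83 ± 0.23 (adjusted p = 0.0321), and it was not called without WT_HT_W2.5 replicate 1 or 2 (adjusted p = 0.0817 and 0.298) or mads1_HT_W2.5 replicate 1 or 3 (adjusted p = 0.0958 and 0.139).

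Calls for stage differed between settings, with 22 of the 73 members tested higher at W3.5 in at least 1 of 3 settings, beside 11% of all genes, and 2 lower, beside 12%. In WT at HT, 15 were higher at W3.5 than at W2.5, beside 6.58% of all genes tested, and 1 was lower, beside 8.19%. In mads1 at LT, 11 were higher, beside 4.97%, and 0 were lower, beside 4.16%. In WT at LT, 1 was higher, beside 2.68%, and 2 were lower, beside 2.19%, shares that are close to the background. One member was higher at W3.5 in all 3 settings, beside 0.774% of all genes, and 0 were lower in all 3, beside 0.504%. The counts of calls fell in several of the fits that left out 1 library, for which shares over all genes are not given. In WT at HT the 16 calls fell to 6 without WT_HT_W2.5 replicate 1 and to 9 without replicate 2. In mads1 at LT the 11 calls fell to 3 without mads1_LT_W2.5 replicate 3, to 6 without replicate 2 of that group, and to 4 without mads1_LT_W3.5 replicate 2 or replicate 3. In WT at LT the 3 calls fell to 0 without WT_LT_W2.5 replicate 3, WT_LT_W3.5 replicate 2 or WT_LT_W3.5 replicate 3, and to 1 without WT_LT_W3.5 replicate 1. With WT_HT_W2.5 replicate 3 added, 11 members were called in WT at HT, all higher, beside 5.21% of all genes higher and 17.6% lower. In the settings at LT 0 members were then called. Of all genes, 0.483% were higher and 0.220% lower in WT at LT, and 1.16% and 0.505% in mads1 at LT.

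HORVU4Hr1G013540 had the lowest adjusted p for stage in WT at HT among the members named here. It had 14.3, 14.8 and 17.7 CPM in WT_HT_W3.5, against 8.16 and 9.11 CPM in WT_HT_W2.5, and these did not overlap (log2 difference 0.85 ± 0.15, adjusted p = 0.000608). The largest called rise there among members with at least 2 CPM in the higher group, that of HORVU3Hr1G111580, was 1.88 ± 0.55 (adjusted p = 0.0268), from 2.10, 1.82 and 3.08 CPM in WT_HT_W3.5 against 0.840 and 0.376 CPM in WT_HT_W2.5. It was not called without WT_HT_W2.5 replicate 1 (adjusted p = 0.0705), WT_HT_W2.5 replicate 2 (adjusted p = 0.225) or WT_HT_W3.5 replicate 3 (adjusted p = 0.103). In mads1 at LT the largest by the same limit was that of HORVU3Hr1G096890, with 1.66, 1.97 and 2.95 CPM in mads1_LT_W3.5 against 1.252, 0.519 and 0.241 CPM in mads1_LT_W2.5 (log2 difference 1.69 ± 0.47, adjusted p = 0.0262). Its call was lost without replicate 2 or 3 of mads1_LT_W2.5 (adjusted p = 0.0993 and 0.134) and without replicate 2 or 3 of mads1_LT_W3.5 (adjusted p = 0.056 and 0.126).

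HORVU7Hr1G099580 was the member higher at W3.5 in all 3 settings. It had 16.6, 17.8 and 18.0 CPM in WT_LT_W3.5, against 11.2, 8.72 and 8.60 CPM in WT_LT_W2.5, with a log2 difference of 0.82 ± 0.23 (adjusted p = 0.0413). The call was lost without replicate 2 or 3 of WT_LT_W2.5 (adjusted p = 0.101 and 0.134) and without replicate 1, 2 or 3 of WT_LT_W3.5 (adjusted p = 0.0816, 0.114 and 0.13), although the stages did not overlap. HORVU3Hr1G095080 was lower at W3.5 in WT at HT, with 3.71, 4.08 and 3.82 CPM in WT_HT_W3.5, against 8.82 and 6.17 CPM in WT_HT_W2.5 (log2 difference −0.97 ± 0.25, adjusted p = 0.0153). Without WT_HT_W2.5 replicate 1 it was −0.69 (adjusted p = 0.22), and with WT_HT_W2.5 replicate 3 added it was −0.45 (adjusted p = 0.531).

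Interactions tested whether one factor's effect differed between settings without mads1_HT_W3.5. Genotype by temperature at W2.5, the excess of the mads1 over WT difference at HT, was called in either direction for 8 of the 73 members tested, 4 positive and 4 negative, beside 2.06% of all genes. Temperature by stage in WT was called for 3 members, all positive, beside 2.95%. Genotype by stage at LT was called for 0 members in edgeR, beside 0.774%. DESeq2 called 1, and 8 had an unadjusted p under 0.05 in edgeR. The smallest adjusted p was that of HORVU2Hr1G009570, whose log2 interaction was −1.02 ± 0.14 (adjusted p = 0.000189). It had 68.4, 80.5 and 78.5 CPM in mads1_HT_W2.5, against 34.7 and 37.3 CPM in WT_HT_W2.5, and 64.4, 70.7 and 65.5 CPM in mads1_LT_W2.5, against 16.4, 16.7 and 14.0 CPM in WT_LT_W2.5. In WT it rose at HT, by log2 1.19 ± 0.11 at W2.5 (adjusted p = 5.13e-07), and the mutant values at the 2 temperatures overlapped.

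HORVU4Hr1G013540 had the firmest temperature by stage interaction in WT, 0.98 ± 0.19 on the log2 scale (adjusted p = 0.00571). It had 14.3, 14.8 and 17.7 CPM in WT_HT_W3.5, against 11.4, 12.6 and 11.5 CPM in WT_LT_W3.5, while at W2.5 it had 8.16 and 9.11 CPM in WT_HT_W2.5, against 14.9, 12.2 and 10.6 CPM in WT_LT_W2.5. HT was thus the higher temperature at W3.5 and the lower at W2.5. The call was lost without WT_HT_W2.5 replicate 1 (0.90, adjusted p = 0.0629) and with WT_HT_W2.5 replicate 3 added (1.24, adjusted p = 0.0724). With that library added, 1 member was called for genotype by temperature, beside 0.286% of all genes positive and 0.368% negative. For temperature by stage 0 members were called, beside 0.231% positive and 0.418% negative.

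Some members lie next to each other in the order of identifiers. Within 10 listed positions of another member were 13 members, in 8 pairs. No such count was made for other genes, so whether members lie closer together than other genes was not tested. On chromosome 2, HORVU2Hr1G020790, HORVU2Hr1G020900 and HORVU2Hr1G020920 stood within 3 positions and moved with genotype in opposite directions. HORVU2Hr1G020900 had 4.80, 5.43 and 5.54 CPM in mads1_LT_W3.5, against 0.940, 0.598 and 0.605 CPM in WT_LT_W3.5 (log2 difference 2.95 ± 0.26, adjusted p = 1.37e-07), and HORVU2Hr1G020920 had 0.515, 0.802 and 0.923 CPM, against 0, 0.0598 and 0 CPM (37 reads and 1 read, ratio 40.5, 95% interval 6.83 to 1641, adjusted p = 8.45e-05). HORVU2Hr1G020790 was lower in mads1 in the same libraries. Whether reads of near-identical copies were counted under another identifier was not tested. On chromosome 3, HORVU3Hr1G094960, HORVU3Hr1G095080, HORVU3Hr1G095090 and HORVU3Hr1G095200 stood within 5 positions, and their levels in mads1_HT_W3.5 were 3.11 to 4.06, 17.4 to 22.96, 12.3 to 17.5 and 15.3 to 19.1 CPM. In WT_HT_W3.5 they had 1.13 to 1.98, 3.71 to 4.08, 2.97 to 5.07 and 3.96 to 6.38 CPM. These neighbours were named after their values were seen.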

How the data were processed

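RNA of 24 inflorescence libraries was sequenced from TruSeq RNA kit libraries, per the labels' protocols. The submitters' processing notes name HISAT2 and HTSeq. The sources used here do not state their versions, the genome build, the annotation or the strand setting, so antisense or overlapping genes and near-identical copies are uncertain. Deposited values are whole, unscaled read counts for each identifier. FPKM, also deposited, is by its values the count over gene length and library total: a recomputation differed by a relative 9.9e-08 at most. Depth is given by the library totals, and intervals and floors cover counting error only.

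CPM is a count over its column total. Tests on counts of the 20 libraries used edgeR 4.0.16 under R 4.3.3 (filterByExpr, TMM, 7 group means, quasi-likelihood F tests, Benjamini-Hochberg over 18465 genes). A standard error is the log2 difference over the square root of F. The rule that chose the members bounds these libraries from above but uses no difference among them. The members, marker list and naming rule were chosen with earlier results of these data known. The rule names, among members, the 6 with the largest ratio, the 4 with the highest FPKM, the largest called change per comparison and direction at 2 CPM or more, the lowest p per interaction, and those nearest the threshold. It gave 25 members; others are named as neighbours. Alternatives were other thresholds and scaling for the rule, and for the tests DESeq2 1.42.0, its size factors, no filter, a replicate block, other library sets and leaving out each library. A simulated version of the genotype comparison at LT W2.5 held 17710 tested genes, 200 of them changed: 92% of the 2-fold changes and 99% of the 4-fold ones were called, and 4.98% of calls were false. Changes were planted only in genes above 1 CPM in WT_LT_W2.5, with counts drawn from the kind of model that the test assumes. The shares called thus do not cover members below that level.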

Additional observations from a re-analysis of the deposited data

Results flagged for a closer look

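For 7 named members the size of a response differed between settings in a test of the difference itself, in edgeR with Benjamini-Hochberg adjustment over all genes tested. All values are log2 interactions. Genotype by temperature at W2.5 was −1.02 for HORVU2Hr1G009570 (adjusted p = 0.000189), and this call held under each alternative run. It was 1.06 for HORVU4Hr1G013540 (adjusted p = 0.00374), lost without WT_HT_W2.5 replicate 1 (0.97, adjusted p = 0.0522) and with WT_HT_W2.5 replicate 3 added (1.31, adjusted p = 0.058). It was 1.45 for HORVU5Hr1G062510 (adjusted p = 0.00853), lost without WT_HT_W2.5 replicate 1 (1.39, adjusted p = 0.0768) and with replicate 3 added (0.42, adjusted p = 0.717). That member had 278, 278 and 240 CPM in mads1_HT_W2.5, against 153 and 166 CPM in WT_HT_W2.5, and 124, 87.0 and 73.0 CPM in mads1_LT_W2.5, against 162, 143 and 163 CPM in WT_LT_W2.5. Its genotype difference was 0.77 at HT (adjusted p = 0.0366) and −0.68 at LT (adjusted p = 0.0363). Both calls were lost with a replicate block (adjusted p = 0.0613 at HT and 0.0542 at LT). At HT the call was also lost without WT_HT_W2.5 replicate 1 or 2 or mads1_HT_W2.5 replicate 1 or 2, and with WT_HT_W2.5 replicate 3 added the difference was −0.26 (adjusted p = 0.646). At LT it was lost without WT_LT_W2.5 replicate 1 or 3 or mads1_LT_W2.5 replicate 2 or 3, and with WT_HT_W2.5 replicate 3 added (adjusted p = 0.958).

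Genotype by temperature was −2.13 for HORVU5Hr1G062830 (adjusted p = 0.0355). It was lost when any of 7 libraries was left out, namely WT_LT_W2.5 replicate 1, mads1_LT_W2.5 replicates 2 and 3, WT_HT_W2.5 replicates 1 and 2, and mads1_HT_W2.5 replicates 1 and 3, with values of −1.83 to −2.24, and with WT_HT_W2.5 replicate 3 added (−2.36, adjusted p = 0.0618). It was 1.64 for HORVU7Hr1G099580 (adjusted p = 0.0224), lost without WT_LT_W2.5 replicate 1, mads1_LT_W2.5 replicate 2 or 3, WT_HT_W2.5 replicate 1 or 2, or mads1_HT_W2.5 replicate 1 or 2, with values of 1.44 to 1.82, and with WT_HT_W2.5 replicate 3 added (2.00, adjusted p = 0.118). It was 0.87 for HORVU2Hr1G099200 (adjusted p = 0.0223), lost without WT_LT_W2.5 replicate 1, mads1_LT_W2.5 replicate 3, WT_HT_W2.5 replicate 1 or 2, or mads1_HT_W2.5 replicate 2, with values of 0.79 to 0.94, and at −0.12 with WT_HT_W2.5 replicate 3 added (adjusted p = 0.914).

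Temperature by stage in WT was 0.98 for HORVU4Hr1G013540 (adjusted p = 0.00571), lost without WT_HT_W2.5 replicate 1 (0.90, adjusted p = 0.0629), with replicate 3 added (1.24, adjusted p = 0.0724) and with all 24 libraries (1.24, adjusted p = 0.0549). It was 1.14 for HORVU3Hr1G004140 (adjusted p = 0.0414) and was lost in 9 of the fits that left out 1 library, namely WT_LT_W2.5 replicate 1, 2 or 3, WT_LT_W3.5 replicate 2 or 3, WT_HT_W2.5 replicate 1 or 2, or WT_HT_W3.5 replicate 2 or 3, with values of 1.06 to 1.19, and with a replicate block (1.10, adjusted p = 0.0528). With WT_HT_W2.5 replicate 3 added it was 0.14 (adjusted p = 0.891).

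WT_HT_W2.5 replicate 3, which the choice of members and the tests leave out, held 11 members above the highest of the 20 other libraries. For 3 of them its value was also above the lowest mads1_HT_W3.5 library: it had 37.8 CPM of HORVU2Hr1G099200, against 33.9 CPM in that mads1_HT_W3.5 library. It had 42 members below both of its fellow libraries and 9 with no read. None of these counts was made over all genes, so they do not set the members apart. With WT_HT_W2.5 replicate 3 among the libraries compared, 72 of the 81 members met the rule. Those lost include 3 of the 4 most abundant: it had 561 CPM of HORVU3Hr1G004140, 371 CPM of HORVU5Hr1G062510 and 303 CPM of HORVU7Hr1G010690, while the other WT_HT_W2.5 libraries had 243 and 256, 153 and 166, and 160 and 192 CPM.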

How the results depend on the processing

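The number of members, 81, was 32 with a ratio of 2 and 179 with a lower ratio. Leaving out a mads1_HT_W3.5 library, which cannot lower the number, gave 88 to 170. TMM-scaled CPM gave 84, of which 80 were members. With WT_HT_W2.5 replicate 3 added to the tests, members called in either direction numbered 12 for genotype at LT W2.5 and 12 at LT W3.5, 29 for temperature in WT at W3.5 and 21 in mads1 at W2.5, 0 for stage in WT at LT and 0 in mads1 at LT, 1 for genotype by temperature and 0 for temperature by stage. With all 24 libraries they numbered 13 for genotype at LT W3.5 and 21 for temperature in mads1 at W2.5. They numbered 0 for both stage comparisons at LT, 3 for genotype by temperature and 0 for temperature by stage. Calls over all genes fell too. For genotype at LT W3.5, 1.70% of all genes were then higher and 0.718% lower, against 10.3% and 6.79% with 20 libraries. For temperature in mads1 at W2.5 the shares were 4.29% and 3.82%, against 17.1% and 17.4%. For stage at LT they were 0.429% and 0.207% in WT, and 1.15% and 0.489% in mads1. No filter and DESeq2 each gave 6 for temperature by stage and 1 for genotype by stage at LT. Leaving out 1 library gave 11 to 20 for genotype at HT W2.5, 0 to 3 for stage in WT at LT, 6 to 14 for stage in WT at HT, 3 to 12 for stage in mads1 at LT, 3 to 11 for genotype by temperature, 1 to 6 for temperature by stage and 0 to 4 for genotype by stage. Temperature by stage was 1 without WT_LT_W2.5 replicate 1, WT_LT_W3.5 replicate 2, WT_HT_W2.5 replicate 1 or WT_HT_W3.5 replicate 3, 6 without WT_LT_W2.5 replicate 2 and 5 without WT_HT_W3.5 replicate 1. Genotype by temperature was 3 without WT_HT_W2.5 replicate 1, 4 without replicate 2 and 5 without WT_LT_W2.5 replicate 1. Genotype by stage was 4 without mads1_LT_W3.5 replicate 1, and it was 1 when mads1_LT_W2.5 replicate 3 or WT_LT_W2.5 replicate 1 was left out. The other counts stayed within 1.5 times their value. Shares over all genes are not given for the fits that left out 1 library. The counts from those fits thus do not set the members apart.

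The 88 calls of named members gave 1069 values under these alternatives: 874 were still called, 191 were not, and 4 changed sign. Adding WT_HT_W2.5 replicate 3 ended 39 calls, all 24 libraries ended 36, DESeq2 ended 1 and its size factors in edgeR 1, and no filter ended 0. The sign changes were HORVU5Hr1G062510 for genotype at HT W2.5, at −0.26 with that library and −0.28 with all 24, and HORVU2Hr1G099200 for genotype by temperature, at −0.12 and −0.13. The cause was not tested. Fits with a replicate block called 21, 26 and 19 members for genotype at LT W2.5, LT W3.5 and HT W2.5, and 29, 48 and 40 for temperature in WT at W2.5, WT at W3.5 and mads1 at W2.5. The block ended 3 of the 88 calls, namely temperature by stage for HORVU3Hr1G004140 and genotype at LT W2.5 and HT W2.5 for HORVU5Hr1G062510. Replicate numbers were not taken as pairs: same-numbered libraries correlated by −0.40 to 0.15 over the comparisons, and 9 of 20 libraries correlated best with their own number. Of the 8 members that the filter on low counts left out, 5 were tested without a filter.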

Other observations

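The few reads that 4 low members had outside mads1_HT_W3.5 lay mostly in the mutant or at HT. That takes in every other group but WT_LT_W3.5 and WT_LT_W2.5, so evenly spread reads would also lie mostly there. These members were chosen after their values were seen, and the folds below, against 3 counts over the group with no read, are bounds. HORVU6Hr1G055990 had 375 reads in mads1_HT_W3.5. Over the other groups it had 16 reads in mads1_LT_W3.5 and none in WT_LT_W3.5, and 25 reads in mads1_HT_W2.5 and none in the 2 WT_HT_W2.5 libraries used, at least 5.83-fold and at least 5.08-fold higher in mads1. At LT W2.5 it had 18 reads in mads1_LT_W2.5 and 1 in WT_LT_W2.5, a ratio of 19.1 with a 95% interval of 3.02 to 796 for counting error. In edgeR only the difference at LT W3.5 was called (adjusted p = 0.0227). Its reads in mads1_LT_W3.5 were 2, 12 and 2 by replicate, so most came from replicate 2. HORVU4Hr1G052770 had 551 reads in mads1_HT_W3.5, 9 in mads1_LT_W3.5 and 1 in WT_LT_W3.5, and 11 in mads1_HT_W2.5 and none in WT_HT_W2.5, at least 2.24-fold higher. The ratio at LT W3.5 was 9.84, with a 95% interval of 1.36 to 432 for counting error. HORVU6Hr1G010420 had 155 reads in mads1_HT_W3.5. Elsewhere its reads were in HT groups, with 15 in WT_HT_W3.5 and none in WT_LT_W3.5, at least 5.50-fold higher, 9 in mads1_HT_W2.5 and none in mads1_LT_W2.5, at least 3.10-fold higher, and 12 in WT_HT_W2.5 and none in WT_LT_W2.5, at least 7.19-fold higher. HORVU6Hr1G003940 had 135 reads in mads1_HT_W3.5, 53 in WT_HT_W3.5 and none in WT_LT_W3.5, at least 19.4-fold higher at HT (adjusted p = 4.24e-05 in edgeR). HORVU4Hr1G052770 and HORVU6Hr1G010420 did not pass the filter on low counts and have no p here.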
